A study of Mus musculus with 2 samples.

Results

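Described here are 3684 weak to moderate KAT8 peaks deep inside genes that were called in both R848-stimulated and untreated mouse macrophages. They were chosen from the 52001 KAT8 CUT&Tag peaks of the untreated library. A member overlapped 1 of the 44772 peaks of the R848 library by at least 1 bp, had its summit inside a protein-coding gene and more than 5000 bp from every protein-coding gene end, and had a fold over background under 10. The members made up 7.08% of all untreated peaks and 22.9% of the 16096 untreated peaks that overlapped an R848 peak. The cells were mouse primary bone marrow-derived macrophages, grown from marrow with 20 ng/ml recombinant M-CSF, the growth factor that drives marrow cells to become macrophages. The R848 group was stimulated with R848 at 100 ng/ml for 2 h, and the untreated group received no R848; the study's design text calls the cells wild type. Each group is 1 library, so no difference between the groups has a replicate check, no p-value is given, and every interval covers counting error only. No library made with a control antibody was analysed here. Overlap, position and fold chose the members and are given as description.

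KAT8, also called MOF, is an enzyme of the MYST family that acetylates lysines. It works in the MSL complex, which acetylates lysine 16 of histone H4, and in the NSL complex, which includes KANSL1 and is known for binding promoters of widely expressed genes. R848 (resiquimod) is a small-molecule ligand of the endosomal receptor TLR7, which signals through MYD88 to NF-kB and MAP kinases and switches on inflammatory genes in macrophages. CUT&Tag uses an antibody to bring a transposase to the protein of interest, so that fragments are cut and tagged around it. The interior of a gene holds introns and exons and, in many genes, enhancers and additional promoters from which shorter transcripts start.

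The members shared their places with additional promoters in a small number of cases, and the members of high fold did so most often. Of the 3571 members on chromosomes with annotated starts to compare, 158 (4.42%, exact 95% interval 3.77–5.15) had the summit within 1000 bp of an annotated transcription start. Of the 9860 deep intragenic untreated peaks with no R848 overlap, 205 (2.08%, 1.81–2.38) did, so the intervals did not overlap. These groups were split by the overlap rule and not matched for fold or width, so what this difference reflects was not tested. The start lay inside the peak itself in 106 of the 158 cases. In 138 cases it was a start of the host gene, in 131 host genes, and in 20 it belonged to another gene. The share at a start was 3.44% among members of fold under 3 and 3.13% between 3 and 4. It was 6.28% between 4 and 5, 14.4% between 5 and 6 and 13.5% (7.56–21.6) above 6.

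The 250 bases before the start are shown for 7 of these members, to show the base composition that is then compared over all such starts. The first 4 have the highest folds among members at a start, and Hdac4, Runx1 and Kansl1 come from the gene lists below. Sequences are from RefSeq (GRCm38.p6, the assembly of mm10), 5′ to 3′ on the gene's strand, ending at the base before the start. Capitals mark every match, on either strand, of GGGCGG (the Sp/KLF box, CCGCCC on the other strand), TATAAA (the TATA box) and CCAAT (the CCAAT box, ATTGG on the other strand).
Iffo2, chr4:139574470-139574719, plus strand: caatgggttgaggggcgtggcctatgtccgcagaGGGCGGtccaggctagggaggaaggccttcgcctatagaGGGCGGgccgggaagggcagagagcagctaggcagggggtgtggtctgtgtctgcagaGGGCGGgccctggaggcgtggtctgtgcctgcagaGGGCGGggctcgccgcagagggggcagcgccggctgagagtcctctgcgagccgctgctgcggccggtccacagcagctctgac
Larp1, chr11:58008814-58009063, plus strand: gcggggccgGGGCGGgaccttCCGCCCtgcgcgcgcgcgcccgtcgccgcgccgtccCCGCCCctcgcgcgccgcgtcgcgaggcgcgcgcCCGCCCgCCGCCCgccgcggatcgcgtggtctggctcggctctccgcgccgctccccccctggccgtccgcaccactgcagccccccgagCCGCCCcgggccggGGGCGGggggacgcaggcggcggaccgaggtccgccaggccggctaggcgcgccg
Por, chr5:135688895-135689144, plus strand: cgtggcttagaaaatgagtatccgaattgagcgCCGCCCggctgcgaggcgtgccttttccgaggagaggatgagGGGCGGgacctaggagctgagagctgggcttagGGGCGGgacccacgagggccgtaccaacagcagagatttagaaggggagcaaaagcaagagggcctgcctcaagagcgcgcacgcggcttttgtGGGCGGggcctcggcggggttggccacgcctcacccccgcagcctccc
Sgk1, chr10:21994416-21994665, plus strand: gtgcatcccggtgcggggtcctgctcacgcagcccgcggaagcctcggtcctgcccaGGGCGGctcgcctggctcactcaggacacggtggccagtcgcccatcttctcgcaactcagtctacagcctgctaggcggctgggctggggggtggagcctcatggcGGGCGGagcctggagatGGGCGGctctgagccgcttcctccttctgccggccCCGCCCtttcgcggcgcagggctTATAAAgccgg
Hdac4, chr1:92180342-92180591, minus strand: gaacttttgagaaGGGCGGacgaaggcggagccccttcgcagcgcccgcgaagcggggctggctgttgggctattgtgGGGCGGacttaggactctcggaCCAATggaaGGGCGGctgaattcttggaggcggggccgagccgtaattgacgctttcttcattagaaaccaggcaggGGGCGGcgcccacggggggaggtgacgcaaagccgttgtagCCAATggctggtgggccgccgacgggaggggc
Runx1, chr16:92697330-92697579, minus strand: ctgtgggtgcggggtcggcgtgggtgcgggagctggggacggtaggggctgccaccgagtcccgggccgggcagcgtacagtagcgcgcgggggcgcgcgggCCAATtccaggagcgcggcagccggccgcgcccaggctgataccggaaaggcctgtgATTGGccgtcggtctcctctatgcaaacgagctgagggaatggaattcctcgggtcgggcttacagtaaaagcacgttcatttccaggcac
Kansl1, chr11:104442321-104442570, minus strand: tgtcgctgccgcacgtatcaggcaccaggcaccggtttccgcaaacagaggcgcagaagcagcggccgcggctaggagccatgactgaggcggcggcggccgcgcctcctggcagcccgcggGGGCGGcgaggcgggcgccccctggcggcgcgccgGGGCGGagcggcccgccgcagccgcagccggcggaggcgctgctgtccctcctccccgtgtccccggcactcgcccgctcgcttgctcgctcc

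All 7 stretches were rich in G and C, with 65.2% in Hdac4 and 86.8% in Larp1 at the extremes, and each held between 17 and 53 CpG dinucleotides. The CpG count was 0.593 times that expected from base content in Iffo2, the lowest of the 7, and 1.14 times in Larp1, the highest. The Sp/KLF box matched 7 times in Larp1, 4 times each in Iffo2, Por, Sgk1 and Hdac4, and 2 times in Kansl1. Runx1 held no such match and had 2 CCAAT boxes, and Hdac4 also had 2. The only TATA box among the 7 was that of Sgk1. A match is a string of letters and not a measured binding site.

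Starts with a member were richer in GC and CpG than starts without one. The table of starts places 4284 starts more than 5000 bp inside protein-coding genes, and 192 of them (4.48%) had a member within 1000 bp. Among starts of protein-coding genes 157 of 2151 did (7.30%, 6.24–8.48), against 35 of 2133 starts of non-coding genes (1.64%, 1.15–2.27). In the 250 bases before the 157 coding starts with a member the median GC content was 66% (64–68.4) and the median number of CpGs 21. Before the 1994 coding starts deep inside genes without a member the medians were 51.6% (51.2–52) and 5. A CpG count of at least 0.6 times that expected from base content, together with GC of at least 50%, was met by 119 of 157 starts with a member (75.8%, 68.3–82.3). It was met by 340 of 1994 without one (17.1%, 15.4–18.8) and by 31.0% of all 32851 starts in the table. The values given for all starts, here and for the motifs, also cover starts of non-coding genes. GGGCGG was present before 75.2% (67.6–81.7) of starts with a member, against 27.6% (25.7–29.7) without one and 32.7% of all starts. TATAAA was present before 1.91% (0.396–5.48), against 11.8% (10.4–13.3) and 12.4% of all starts. CCAAT was found before 36.3% with a member and 31.3% without, with overlapping intervals, and before 33.8% of all starts. AP-1 letters (TGANTCA, N for any base) stood before 3.82% (1.42–8.13) with a member and 8.02% (6.87–9.30) without, with overlapping intervals. PU.1 letters (GAGGAAGT) stood before 1 of 157 starts with a member (0.637%, 0.0161–3.50) and 2.31% (1.69–3.07) without, also with overlapping intervals. AP-1 and PU.1 are factors that macrophage enhancers are known to use. TGANTCA was present before 6.75% and GAGGAAGT before 2.44% of all starts. Overlap between different motifs was not removed. The starts were not matched for base content, and GGGCGG holds only G and C while TATAAA holds only A and T. Whether the motif shares differ beyond base content was not tested. Several starts can lie near 1 member: 192 starts had a member within 1000 bp, while 158 members lay at a start. Neighbouring starts can also share bases, so the starts are not independent and these intervals can be too narrow.

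**Figure D1:**
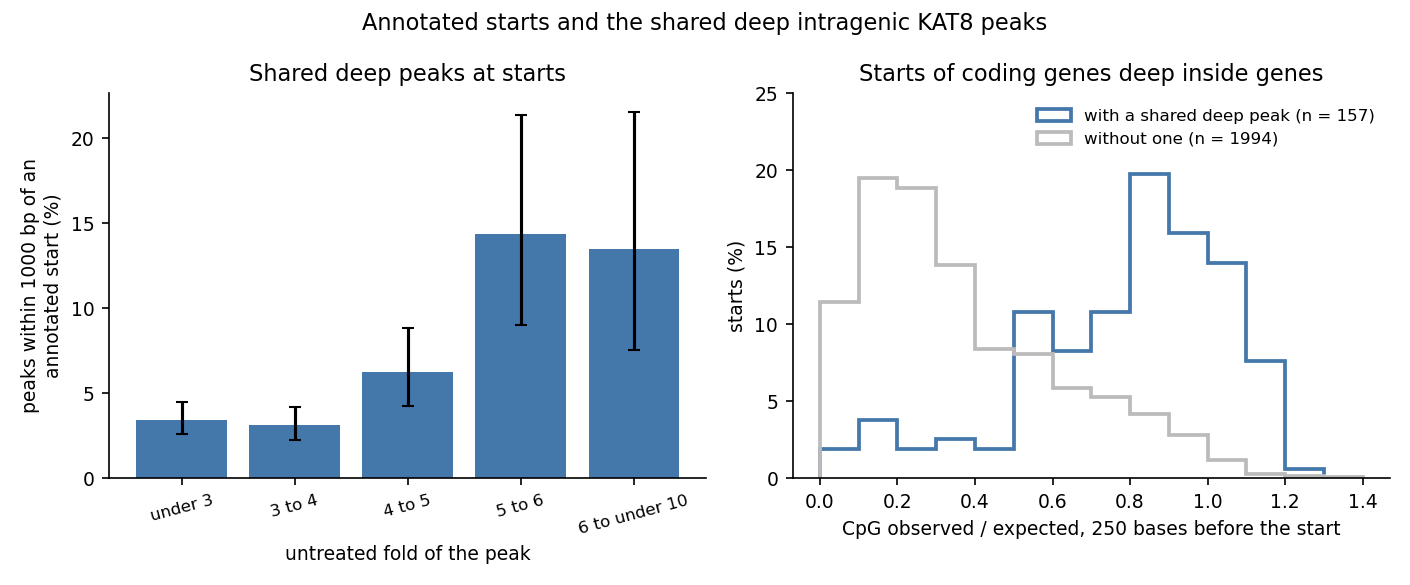
Left, percentage of shared deep peaks with the summit within 1000 bp of an annotated start (y axis) by untreated fold (x axis), with exact 95% intervals. Right, histogram of the CpG observed over expected ratio in the 250 bases before coding-gene starts deep inside genes, for the 157 with a shared deep peak (blue) and the 1994 without one (grey). The blue curve peaks between 0.8 and 0.9 and the grey one under 0.3.

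The peak at the internal start of Larp1, an RNA-binding protein that controls translation of ribosomal protein mRNAs, lay at chr11:58008651-58010311 and was 1661 bp wide. Its summit pileup, the number of fragments stacked at the highest point, was 66 in the R848 library and 77 in the untreated library. At Iffo2 (chr4:139574318-139574835), an intermediate filament family gene, the pileup was 24 with R848 and 48 untreated. Por, the reductase that passes electrons to cytochrome P450 enzymes, had 24 with R848 and 40 untreated (chr5:135688744-135689356). Sgk1, a kinase acting downstream of PI3K, had 16 with R848 and 37 untreated. Raw pileups, here and below, are not corrected for the difference between the libraries. Scaled by each library's lowest background, the R848 over untreated ratio was 1.10 at Larp1, 0.643 at Iffo2, 0.772 at Por and 0.556 at Sgk1. Equal raw pileups correspond to a scaled ratio of 1.29, and an R848 pileup slightly below the untreated one can still scale above 1.

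Signalling and chromatin genes were among the hosts with a member at a start of their own; the following were picked after their values were seen. Stat5b, a transcription factor activated by cytokine receptors, had a pileup of 32 with R848 and 36 untreated, over a start 8423 bp from the gene's 5′ end. Map3k1, a kinase upstream of JNK, had 15 with R848 and 23 untreated. Kdm2b, a histone demethylase that binds unmethylated CpG islands, had 17 with R848 and 20 untreated. Brd3, a BET protein that reads acetylated histones, had 11 with R848 and 23 untreated. Rbpj, the DNA-binding factor of the Notch pathway, had 17 in both libraries, a scaled ratio of 1.29.

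Hdac4, a class IIa histone deacetylase, had 23 fragments with R848 and 24 untreated, a scaled ratio of 1.23, at a start 15.4 kb into the gene. Runx1, a transcription factor of blood cell development that is transcribed from a distal and a proximal promoter, had 15 with R848 and 21 untreated. Its start lay 129 kb from the 5′ end of the 225 kb gene, and the peak (chr16:92697080-92697897) was the single member among the 11 untreated peaks in Runx1. Kansl1, the scaffold of the NSL complex in which KAT8 itself works, had 10 with R848 and 16 untreated at a start 27.2 kb into the gene. Kat8 itself had no member; its gene body has 3.20 kb more than 5000 bp from gene ends.

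Members at a start were somewhat higher and wider than the others. Their median untreated fold was 3.66 (3.43–3.89) against 3.20 for the 3413 members away from starts, and their median width 443.5 bp (415–519) against 382 bp (374–391). Of deep intragenic untreated peaks at a start 43.5% (38.4–48.8) were shared with the R848 list, against 26.1% (25.4–26.9) away from starts. These peaks were not matched for fold or width. The members at starts also lay nearer the beginning of their genes. In genes with a known strand 71.2% (63.2–78.4) of members at starts lay in the 5′ 50% of the host, against 49.9% (48.0–51.8) of members away from starts. Untreated-only deep peaks were at 48.6%. Deep starts without a member are not compared here, so this difference is not separate from where annotated starts lie in genes.

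Most members were modest peaks. Their median fold was 3.32 in the R848 library and 3.20 in the untreated library, with a median pileup of 12 with R848 and 14 untreated, and the lowest pileup called was 7 with R848 and 8 untreated. The q-value was 0.05 or less for 66.0% of their R848 peaks and for 62.3% of the members themselves, and for 46.9% in both lists. By untreated fold 1591 members were under 3, 1346 between 3 and 4, 494 between 4 and 5, 145 between 5 and 6 and 108 above 6. The median distance between the R848 and untreated summits was 105 bp (101–110), and 111 members overlapped more than 1 R848 peak. Median width was 386 bp (377–392), against 247 bp (245–249) for untreated-only deep peaks, 472 bp (461–487) for shared peaks within 1000 bp of a gene end and 383 bp for shared peaks outside genes. A wider peak meets the overlap rule more easily, so the choice of members bears on the difference from untreated-only peaks. How much of it comes from that choice was not tested.

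The share of untreated peaks found again in the R848 list was lower deep inside genes than at gene ends. It was 26.5% (25.8–27.3) of 13882 deep intragenic peaks, 52.4% (51.1–53.7) of 5562 peaks within 1000 bp of a gene end and 29.6% (29.1–30.2) of 23733 peaks outside genes. Over all untreated peaks of fold under 10 it was 30.5%. The groups were not matched for fold or width, and how much of the difference goes with position alone was not tested. Among deep peaks the share rose with fold, from 16.2% under 3 to 42.4% between 3 and 4, 81.9% between 4 and 5, 93.5% between 5 and 6 and 99.1% (108 of 109) between 6 and 10.

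The members with the highest fold under the limit were at Iffo2 (9.92), Slc8a3 (9.91), Tlcd4 (9.84), Larp1 (9.75), Atp6v0a2 (9.38), Por (9.38) and the overlapping Wdr63 and Mcoln3 (9.36), followed by 4921504E06Rik (9.16), Spata5 (9.16) and Zfp473 (8.99). Slc8a3 is a sodium-calcium exchanger best known from neurons and muscle, and its pileup was 33 with R848 and 44 untreated. Atp6v0a2, a subunit of the proton pump that acidifies endosomes and Golgi, had 42 with R848 and 40 untreated. At Tlcd4 it was 36 with R848 and 42 untreated, and at Zfp473, a zinc finger gene, 42 with R848 and 40 untreated. Just over the fold limit lay peaks in Pogz (10.04), Intu (10.07) and Gm35315 (10.07). Just inside the distance limit were members in BC049352, 4930467E23Rik and 1700001C19Rik, 5031, 5048 and 5054 bp from the nearest gene end. Just outside it were peaks in Suclg2, Gm3629 and Eva1a, at 4996, 4979 and 4975 bp.

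The members lay in 2132 protein-coding host genes, and the size of a gene's interior went with whether it was a host. A gene can host a member only if it has bases more than 5000 bp from every gene end; 13809 genes had such an interior, and 15.4% of them (14.8–16.1) hosted a member. The median length was 117 kb for hosts and 28.7 kb for genes with an interior but no member. Hosting was 1.81% for interiors under 10 kb, 7.13% between 10 and 30 kb, 17.5% between 30 and 100 kb, 43.2% between 100 and 300 kb and 80.1% between 300 and 1000 kb. All 57 genes with more than 1000 kb hosted a member. The number of members per Mb of interior moved little over the same classes: 4.41, 4.80, 4.13, 4.34, 4.38 and 4.21 from the smallest to the largest, and 4.33 over all genes. A member inside overlapping genes counts for each of them here, which concerned 48 members.

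**Figure D2:**
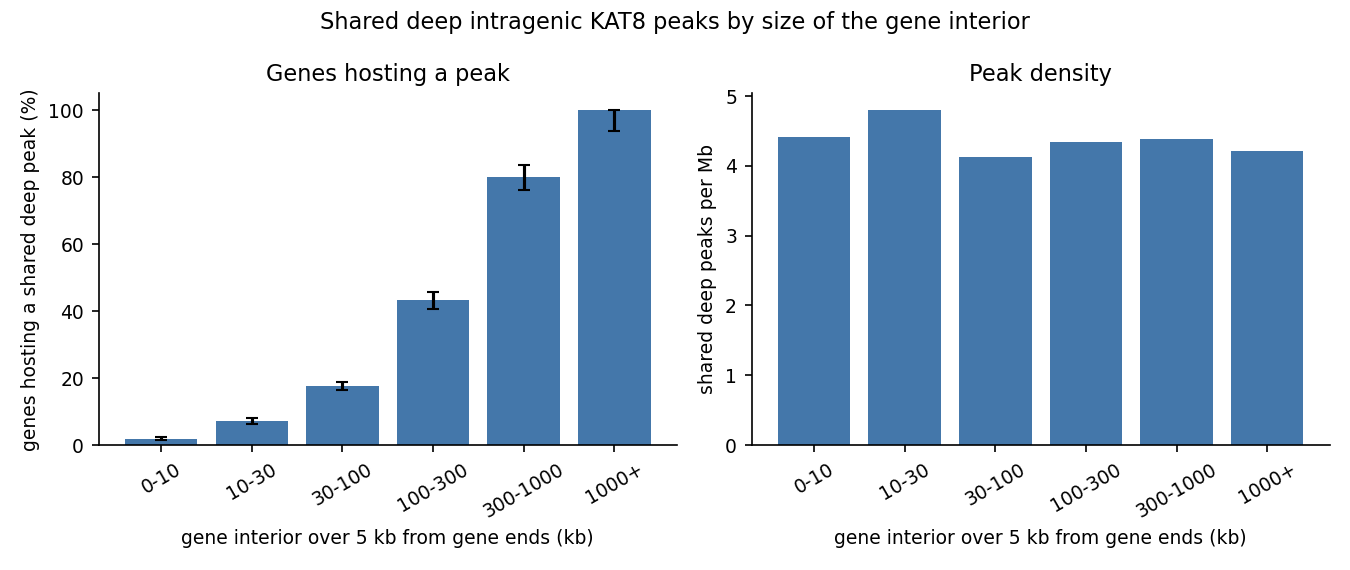
Genes grouped by kb of interior more than 5 kb from gene ends (x axis); left, percentage hosting at least 1 shared deep peak with exact 95% intervals; right, shared deep peaks per Mb of interior. Hosting climbs from 1.81% to 100%, while the density stays between 4.13 and 4.80 per Mb.

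Several members in 1 gene were common among hosts. Of the hosts, 1393 held 1 member, 739 held at least 2 (5.35% of the genes with an interior), 325 at least 3, 111 at least 5 and 15 at least 10. The 739 genes contained 2310 members, 62.7% of all.

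The genes with the most members fell into different kinds. Cntnap2, a neurexin-family adhesion gene of neurons spanning 2241 kb, held 19 members. Fhit, a diadenosine hydrolase gene at a known fragile site, Dmd, the dystrophin gene, and Lsamp, a neuronal adhesion gene, held 12 each. Tenm1, a teneurin, held 11 and Galntl6, a glycosyltransferase gene, 10. In these 6 genes every member had a local background of no more than 2 times the lowest of the library, and pileups of 8 to 28 with R848 and 9 to 27 untreated. Their members were spread out, with a median gap of 59.3 kb in Cntnap2 and 102 kb in Dmd; in Lsamp the median gap was 5.39 kb. None of the 6 exceeded 1.23 members per 100 kb of interior.

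In the other 6 genes the median gap between members lay between 2.47 kb in Gm38510 and 12.8 kb in Zfp978, and several of these genes belong to families with similar copies. Gm7592 held 24 members, Sfi1 22, Gm38510 21, Zfp993 20, Zfp978 16 and Sp140 11. Sfi1, a spindle pole gene, had 36.9 members per 100 kb of interior, a median local background of 104 fragments and pileups of 105 to 404 with R848 and 141 to 480 untreated. Gm7592, Gm38510 and Sp140, an immune gene that reads histone marks, are neighbours on chromosome 1 between positions 85155201 and 85645040. Background was above 2 times the lowest for 24 of 24 members in Gm7592, 22 of 22 in Sfi1, 20 of 21 in Gm38510, 11 of 11 in Sp140, 12 of 16 in Zfp978 and 7 of 20 in Zfp993. How reads that map to several places were handled is not given in the sources used here, so the numbers in these genes are uncertain. Such high background touched 172 members in 42 host genes, 4.67% (4.01–5.40) of members against 1.02% (0.834–1.23) of untreated-only deep peaks. Without them 3512 members remained, with the same median fold of 3.20.

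Macrophage genes hosted members at a density near that of all genes. Of the 107 genes with an interior in 4 lists of macrophage genes, 21 hosted a member (19.6%, 12.6–28.4), beside 15.4% of all genes with an interior. They held 32 members, or 3.59 per Mb (Poisson 2.45–5.06), beside 4.33 per Mb for all genes. Their median fold was 2.98, and 21 of the 32 had a q-value of 0.05 or less in the R848 list and 15 in the untreated list. The lists and the genes were chosen with earlier results of these data known.

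Lineage factors held 4 members in 4 of 18 genes. Besides Runx1 these were Mitf, with a pileup of 10 with R848 and 14 untreated, Mef2a, with 9 with R848 and 12 untreated, and Rxra, with 10 with R848 and 11 untreated. Mitf is a regulator of osteoclasts and lysosomal genes, Mef2a a MADS-box factor and Rxra the partner of many nuclear receptors. Spi1, which encodes PU.1, had 3 R848 peaks and 1 untreated peak in the gene but no member, and Zeb2 had 3 R848 peaks and no untreated peak.

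Surface receptors held 6 members in 4 of 26 genes. Adgre1, which encodes the macrophage marker F4/80, had members at chr17:57374033-57374584 and chr17:57433765-57434548. The first had a pileup of 17 with R848 and 14 untreated, and the second 16 with R848 and 12 untreated. Sirpa, the receptor for the "do not eat me" protein CD47, had 20 with R848 and 14 untreated at one member and 8 with R848 and 12 untreated at the other. Cd36, a scavenger receptor for lipids, had 16 with R848 and 9 untreated. Mrc1, the mannose receptor, had 11 in both libraries, a scaled ratio of 1.29. Csf1r and Itgam held no member; their gene bodies held 1 R848 peak each, with 2 untreated peaks in Csf1r and none in Itgam.

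In Toll-like receptor and NF-kB signalling 2 of 32 genes hosted members (6.25%, 0.766–20.8). Tbk1, a kinase that activates interferon regulatory factors, had members at chr10:121576759-121577563, with a pileup of 24 with R848 and 14 untreated, and at chr10:121579360-121580187, with 16 in both. Tnip1, which restrains NF-kB together with A20, had 20 with R848 and 10 untreated at chr11:54936518-54936781 and 14 with R848 and 15 untreated at chr11:54955839-54956145. Tlr7, the receptor of R848, contained no peak in either list. Nfkb1 had 2 R848 peaks and 1 untreated peak and no member.

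Haematopoietic kinases, phosphatases and cytoskeletal regulators held 18 members in 11 of 31 genes (35.5%, 19.2–54.6). This was the largest number among the 4 macrophage lists, over the largest summed interior (5.32 of 8.92 Mb), at 3.38 per Mb, against 2.34 for lineage factors, 6.49 for surface receptors and 4.13 for Toll-like receptor and NF-kB signalling. Gab2, a docking adaptor for PI3K and SHP2, had 5 members, with pileups of 9, 13, 13, 9 and 10 with R848 and 10, 14, 13, 16 and 12 untreated along the gene. The members with 14 and 13 untreated fragments overlapped the same R848 peak. Vav3, Pik3ap1 and Arhgap15 had 2 members each. Syk, the kinase of ITAM receptors, had 14 with R848 and 10 untreated, Prkcb, a protein kinase C, 19 with R848 and 26 untreated, and Dock10 14 with R848 and 16 untreated.

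**Figure D3:**
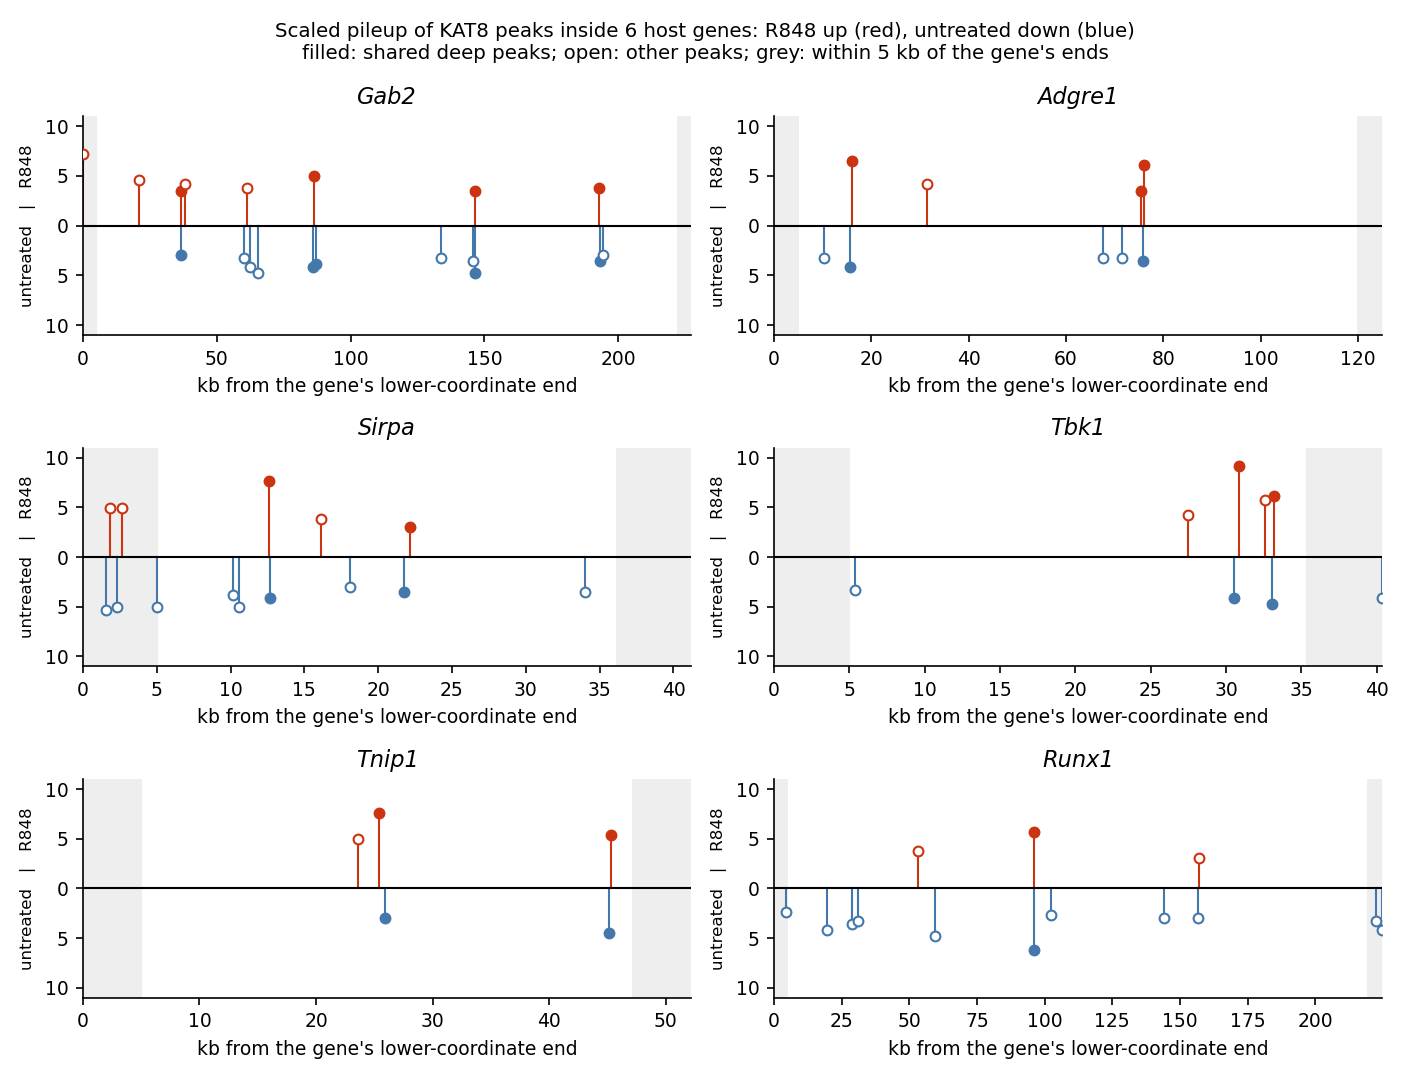
Peaks inside 6 host genes, by distance in kb from the lower-coordinate end of the gene (x axis) and by summit pileup divided by the lowest background of the library (y axis), R848 upward in red and untreated downward in blue. Filled points are shared deep peaks, open points other peaks, and grey bands the 5 kb next to the gene's ends; the only member in Runx1 sits in the interior of the gene, with 10 other untreated peaks.

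Outside these lists, lysosome and lipid genes held 4 members in 4 of 21 genes: Ctsb, a lysosomal protease, Abca1, the cholesterol exporter, Atp6v1h, a proton pump subunit, and Tfeb, a lysosomal transcription factor. Abca1 had a pileup of 13 with R848 and 22 untreated. Chromatin regulators held 9 members in 5 of 30 genes, at 2.64 per Mb. Arid1b, a SWI/SNF subunit, had pileups of 10, 17 and 10 with R848 and 11, 15 and 24 untreated, and Hdac9, another class IIa deacetylase, 8, 9 and 13 with R848 and 18, 13 and 11 untreated.

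Genes known from other cell types were hosts as well. Long genes of neurons and muscle held 142 members in 23 of 25 genes, at 4.05 per Mb (3.41–4.77). Lymphoid markers held 3 members in 3 of 15 genes, 1 each in Cd247, Ebf1 and Gata3, at 1.85 per Mb, and stromal markers none in 9 genes, with a Poisson interval up to 8.69 per Mb. Of 8 macrophage markers, 5 had an interior and Adgre1 alone hosted members. The intervals of all lists included the 4.33 per Mb found over all genes.

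**Figure D4:**
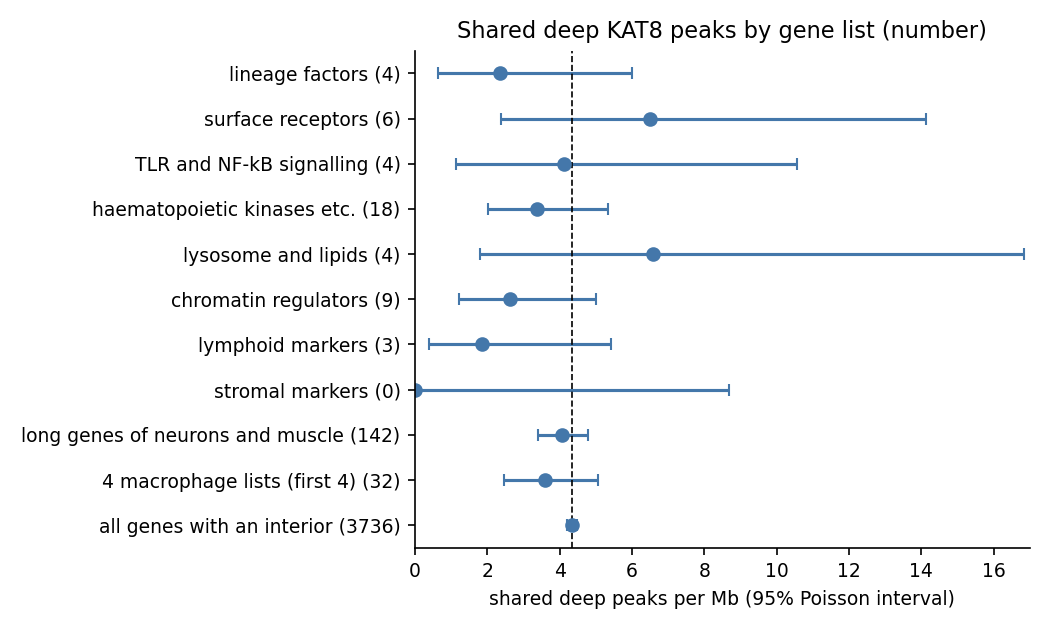
Shared deep peaks per Mb of gene interior (x axis) for each gene list, with the number of peaks in brackets and 95% Poisson intervals; the dashed line is the value over all genes with an interior, 4.33 per Mb, where a peak in overlapping genes counts for each. Every list's interval includes the line.

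R848 and untreated signal at the members was close after scaling by each library's lowest background. Members had to be called in both lists, so sites with too little signal in either list are absent from these ratios. The strongest overlapping R848 peak was used and the fold limit was set on the untreated peak only, which also shapes the ratios. Each pileup was divided by the lowest background of its library, 2.62 fragments with R848 and 3.37 untreated. The median ratio of R848 over untreated scaled pileup was 1.11 (1.10–1.14) for members, 1.07 (1.06–1.08) for shared peaks at gene ends and 1.10 (1.09–1.10) for all shared peaks of fold under 10. The ratio was above 1 for 66.9% of members and for 64.6% of all shared peaks. The lowest pileup that could be called corresponds to 2.67 times the lowest background with R848 and 2.37 times untreated, so a weak shared peak needed more scaled signal in the R848 list. At starts the median was 1.08 (1.03–1.13), against 1.11 (1.10–1.14) away from starts.

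A ratio of 2 or more was reached by 86 members (2.33%, 1.87–2.88), beside 1.56% of all shared peaks, and a ratio of 0.5 or less by 6 (0.163%), beside 0.190% of all. Of the 86, 55 had an untreated pileup of 12 or less, where 1 fragment more or less changes the ratio much. In 18 of the 86 the R848 peak also overlapped a second untreated peak. Among the 3416 members with an R848 peak of their own, 68 (1.99%, 1.55–2.52) reached 2, beside 1.22% of all such shared peaks.

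The 5 highest ratios were at Pdzk1, Tex14, Sdccag8, Dlg2 and Gpm6a. Pdzk1, a scaffold of membrane transporters, had a pileup of 115 with R848 and 24 untreated, a ratio of 6.16 (counting interval 3.94–10.01), but that R848 peak also overlapped another untreated peak. Tex14, a gene of germ cell bridges, had 22 with R848 and 9 untreated, also with a shared R848 peak. Sdccag8, a centrosome gene, had 22 with R848 and 10 untreated, a ratio of 2.83 (1.29–6.69). Dlg2, a synaptic scaffold, had 28 with R848 and 13 untreated, a ratio of 2.77 (1.39–5.83), and Gpm6a, a neuronal membrane protein, 19 with R848 and 9 untreated. The lowest ratios were at Prkce, a protein kinase C needed for macrophage responses to endotoxin, with 10 with R848 and 30 untreated (0.429, 0.187–0.901), and at Ddx50, Mtus2, Tom1l2 and St7, at 0.445, 0.459, 0.468 and 0.488. The Ddx50 peak, in an RNA helicase gene, covers an annotated start of its host and had 9 with R848 and 26 untreated. These 10 were chosen as the extremes of 3684 members, and intervals are not adjusted for that choice.

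Of the 32 members in the macrophage lists, 23 had a ratio above 1, beside 2464 of all 3684 members. A ratio of 2 was reached by 3 of the 32 (9.38%, 1.98–25.02): Tnip1 at 2.57 (1.15–6.15), Cd36 at 2.29 (0.952–5.87) and Tbk1 at 2.21 (1.10–4.61). The interval of that share includes the 2.33% of all members. The median ratio was 1.20 (1.00–1.29) over the 32, with 1.64 for surface receptors, 1.75 for Toll-like receptor and NF-kB signalling, 1.14 for the kinase group and 0.942 for lineage factors. It was 0.891 for chromatin regulators and 1.10 for long genes of neurons and muscle. In the receptor and signalling lists these medians rest on 6 and 4 members.

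**Figure D5:**
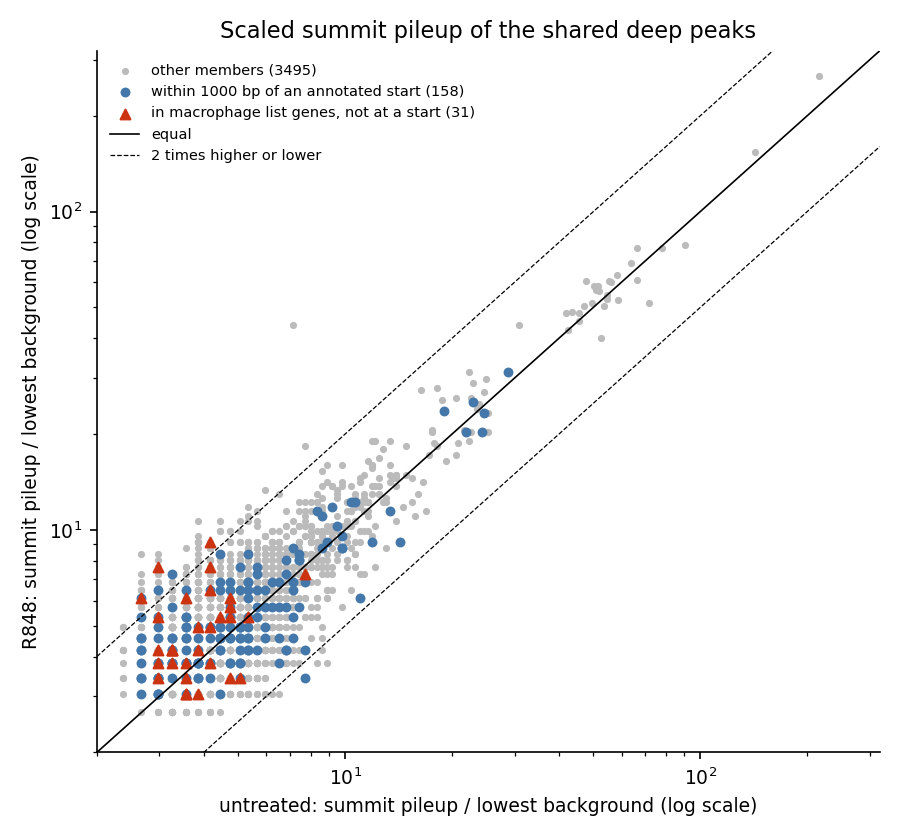
Summit pileup divided by the library's lowest background for each of the 3684 members, R848 (y axis) against untreated (x axis), both on log scales. Blue points are the 158 members at an annotated start and red triangles 31 others in macrophage list genes; the lines mark equal values and ratios of 2 and 0.5, and 86 members lie on or above the upper line and 6 on or below the lower one.

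The summit lay inside a non-coding gene as well as the protein-coding host in 188 of the 3684 members, 143 of them long non-coding RNA genes and 49 pseudogenes, with some in both. None of the 1005 annotated miRNA hairpins in the table used overlapped a member.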

How the data were processed

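KAT8 CUT&Tag peak lists of 1 R848 library and 1 untreated library were used. Per the submitters' processing notes, MACS2 2.2.7.1, Bowtie 0.12.8 and DiffBind were used with mm10, in roles that are not stated; how duplicates were handled, and whether a control entered peak calling, is not given in the sources used here. The deposited columns give every peak's fold (a ratio of signal to local background), its −log10 p-value and −log10 q-value, its summit offset and a score equal to 10 times −log10 p (to within 1). Both lists reach down to a deposited −log10 p of 2.01, which admits many weak peaks. Total read depth is unknown.

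Each peak's pileup at the summit and its local background were the pair of values whose Poisson p and ratio, after adding 1 to both, match the deposited p-value and fold, with a largest relative error of 2.3e-05 in −log10 p. Pileups were divided by each library's lowest background, and a member was compared with the strongest R848 peak that it overlapped. Shares have exact Clopper-Pearson 95% intervals, medians order-statistic intervals, and ratios of pileups conditional binomial intervals. Genes came from RefSeq (GRCm38.p6, 21887 protein-coding genes) and starts from a RefSeq promoter table (32851 starts); starts on chromosome 18 were not analysed here. The code (Python 3.11.15, numpy 2.4.6, pandas 2.3.3, scipy 1.17.1) was tested on simulated data.

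Named are the 12 hosts with most members, the 10 highest folds, up to 5 hosts per list, the 5 highest and 5 lowest ratios, peaks next to the limits, and 9 fixed genes; other names were chosen after their values were seen. The members and lists (238 genes in 9 lists) were chosen with earlier results of these data known. Alternatives varied overlap, q-value, distance, fold and scaling.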

Additional observations from a re-analysis of the deposited data

How the results depend on the processing

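Counts were compared at a tolerance of 1.5 times, and shares and medians by the narrower 95% interval of the main value. By these measures 88 of 126 alternative values stayed near the main value and 38 moved. With overlap required over 50% of both peaks there were 2256 members, 16.3% of deep peaks shared, 1540 hosts, 14 macrophage list genes, 407 genes with several members, 11.2% of genes hosting, a median fold of 3.31 and a width of 396 bp. With q of 0.05 or less in both lists there were 1727 members, 38.7% shared, 1225 hosts, 299 with several, 8.87% of genes hosting, fold 3.66, width 497 bp and 10 macrophage list genes. With −log10 q of 5 or more there were 284 members, 48.0% shared, 243 hosts, 25 with several, 1.76% hosting, fold 5.27, width 640 bp, ratio 1.15 and 0 macrophage list genes. Summits within 250 bp gave 21.8% shared, 579 genes with several members, 13.9% hosting and 364 bp. Lists trimmed to equal length gave 29.9% shared and 394 bp, and the rule applied from the R848 list gave 29.9% shared, with no untreated fold or width. A fold limit of 5 gave 25.2% shared, 14.5% hosting, fold 3.17 and 375 bp. Distances of 2000 and 10000 bp gave 13.7% and 17.9% hosting, ends of all gene types 14.7%, and leaving out members at starts 14.6%. Relative to all shared peaks the median ratio was 1.01. Why these values moved was not tested. The alternatives on starts, high background, R848 peaks of their own and the median of all shared peaks were chosen after seeing the data. No paired analysis was possible because each group is 1 library. At pileups near 10 fragments a single ratio has an interval of more than 2 times in each direction, so most single-member differences were not detectable at this depth.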

Other observations

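The 87 shared deep peaks left out by the fold limit had a median untreated fold of 15.6 and a median pileup of 91. Of 85 that could be compared, 3 lay within 1000 bp of an annotated start, and 27 of the 87 had a local background above 2 times the lowest. The rise with fold in the share at a start, seen among the members, did not continue in these peaks. Their median ratio of R848 over untreated scaled pileup was 1.13 (1.08–1.16), beside 1.11 for the members.

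At starts of coding genes deep inside genes, 157 of 2151 (7.30%) had a member within 1000 bp. Among starts without a member, 157 (7.30% of all 2151) had an untreated-only deep peak within 1000 bp. An R848 peak with no untreated overlap lay within 1000 bp of 110 (5.11%). A start with both kinds of peak counts in each number.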
